A study of Mus musculus with 15 samples.

Results

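The genes that sense, signal and repair DNA breaks were described in irradiated mouse bone marrow mesenchymal stem cells (BM-MSCs) by RNA-seq. A list of 49 genes was matched to the count table by gene symbol, and all 49 were found among its 54532 genes. All 49 also passed the filter on low counts, as did 15590 genes in all. They comprised 14 genes of break sensing and signalling, 16 of homologous recombination, 7 of the Fanconi anemia pathway, 8 of end joining and 4 of single-strand break repair. The symbols, not measured values, defined the list, but the list was chosen with earlier results of these data known.

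Each of the 5 groups had 3 libraries. The cells were primary BM-MSCs of C57BL/6 mice bought from a supplier, and every group, the control included, had been irradiated with 5 Gy and kept in culture for a further 48 h. IR-Con had no gel. The other groups were co-cultured with Gel (RGD-Alg, an alginate hydrogel carrying the RGD cell adhesion peptide), Gel/IL-12 (the same gel with the cytokine interleukin-12), Gel/Laponite (with Laponite, a nanoclay of charged platelets) or Gel/Laponite@IL-12 (with IL-12 adsorbed on Laponite). No group without irradiation is among these samples, so no comparison here shows the effect of radiation. The study's methods give separate experiments as the general rule for its data. Neither they nor the labels say for these libraries whether the 3 of a group came from separate cultures, so the p-values measure the spread between these libraries, which may be in part technical.

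Total counts were 14506459 to 17818982 per library. All 12 mesenchymal markers examined were detected, among them Pdgfra at 600 to 704 CPM (the count relative to the TMM-scaled total of the library) and Ly6a at 598 to 814 CPM. Some were low, such as Eng at 3.65 to 5.77 CPM and Lepr at 0.839 to 3.07 CPM. Of 11 blood and macrophage markers, the pan-leukocyte gene Ptprc was at 0 to 0.317 CPM and Cd3e was at 0 in every library. Cd68, at 5.7 to 11.4 CPM, and Csf1r, at 2.57 to 6.33 CPM, were detected in every library. The summed level of the 11 was 26.6 to 33.3 CPM in IR-Con and 58.6 to 67.3 CPM in the gels, where Cd14 made up most of it. The 5 endothelial markers summed to 9.51 to 10.5 CPM in IR-Con and 8.44 to 12.2 CPM in the gels. The IR-Con libraries differed among themselves more than those of any gel group. The coefficient of variation beyond counting noise, from edgeR's common dispersion, was 17.1% over all genes tested against 3.52 to 4.07%. Over the 49 repair genes the median ratio of SD to mean CPM was 14.6% for IR-Con and 5.02 to 7.27% among the groups with a gel. This ratio includes counting noise, so it is not comparable with the values over all genes.

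A broken chromosome is first bound by sensor proteins, which activate the kinases Atm and Atr, and these spread a signal along the chromatin and to the checkpoint kinases. The break is then joined directly by end joining, which works throughout the cell cycle, or copied from the sister chromatid by homologous recombination, which is used in S and G2 phases when a sister is present. The Fanconi pathway clears crosslinks between the DNA strands during replication and hands the resulting breaks to recombination. In bone marrow, stromal cells such as BM-MSCs persist after radiation doses that kill most blood-forming cells.

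The 49 genes were first compared between the gels, taken as the mean of the 4 gel groups, and IR-Con. With edgeR's quasi-likelihood test, adjusted over all genes by Benjamini and Hochberg with a threshold of 0.05, 32 of the 49 genes were higher in the gels and 5 were lower, and 12 did not pass. Over all genes tested, 27.4% were higher and 27.6% were lower. The median log2 fold change of the 49 genes was 0.46, against -0.01 over all genes. The genes of homologous recombination and the Fanconi pathway accounted for 19 of the 32 higher genes and 1 of the 5 lower ones, out of 23, with a median of 0.60. The end joining and sensor genes, 22 together, included 10 higher and 4 lower genes, with a median of 0.13. The p-values share one estimate of the spread across groups, while IR-Con varied more than the gels. With limma's voom and separate weights for IR-Con and the gels, 24 genes were higher and 2 lower, against 16.2% and 16.9% of all genes, and 13 of the 23 recombination and Fanconi genes were higher and 0 lower.

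**Figure D1:**
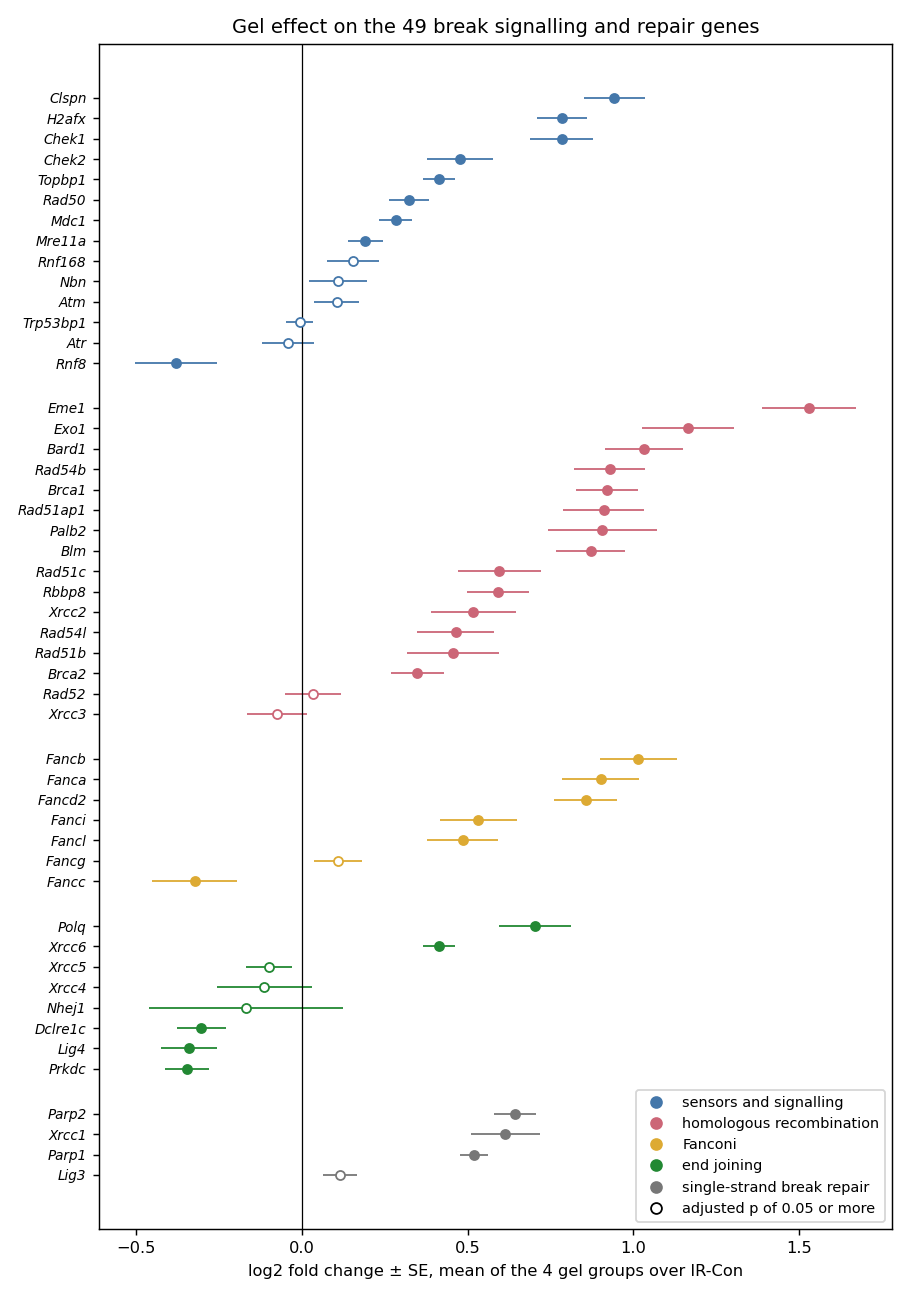
Log2 fold changes of the 49 genes, gels (mean of 4 groups) relative to IR-Con, are plotted with standard errors as bars, grouped by role and ordered within each group. Filled points passed the adjusted threshold of 0.05 in edgeR. Recombination genes run from -0.07 for Xrcc3 to 1.53 for Eme1, and end joining genes from -0.35 for Prkdc to 0.70 for Polq.

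Among the 16 genes of homologous recombination, 14 were higher in the gels and 0 were lower, against 27.4% and 27.6% of all genes. With voom 10 were higher, against 16.2% of all genes. The calls of Brca2, Rad51b, Rad54l and Xrcc2 were lost with voom, and that of Rad51b was also lost in edgeR without IR-Con replicate 1 (adjusted p = 0.0575). The largest difference of the 49 was that of Eme1, which encodes the partner of the nuclease Mus81 that cuts branched recombination intermediates. Eme1 (GRCm38 chr11:94644996-94653964) had 2.12, 1.92 and 2.29 CPM in IR-Con. The plain Gel libraries had 5.45, 5.92 and 6.53 CPM and the Gel/Laponite libraries 7.07, 5.87 and 6.28. With IL-12 the values were 6.44, 5.90 and 6.19 CPM in Gel/IL-12 and 6.38, 5.11 and 6.19 in Gel/Laponite@IL-12. Every gel library stood above every IR-Con library, and the 4 gel groups overlapped one another. The gel effect on Eme1 was a log2 fold change of 1.53 (SE 0.142, 2.89-fold, edgeR adjusted p = 1.11e-08). These levels rest on 30 to 35 counts per IR-Con library and 80 to 114 per gel library, and 10.7% of the exon bases of Eme1 are also exons of other genes, on the opposite strand from Eme1, while the strand rule of the counting is not given in the sources used here.

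Resection, the trimming of the broken end to leave a single-stranded tail, begins with Rbbp8 and the Mre11a complex and is extended by the exonuclease Exo1. Exo1 was at 5.28, 3.00 and 4.79 CPM in IR-Con and at 8.39 to 10.8 CPM (median 10.1) in the 12 libraries with a gel. Its log2 fold change was 1.16 (SE 0.139, adjusted p = 4.30e-07). In CPM, the lowest gel library thus lay above the highest of IR-Con. Rbbp8 rose by a log2 fold change of 0.59 (SE 0.0937, adjusted p = 1.77e-05), with no overlap between 12.8 to 18.5 CPM in IR-Con and 21.5 to 28.2 CPM in the gels.

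Brca1 and Bard1 form a ubiquitin ligase that acts at resected ends, and Palb2 links it to Brca2, which loads the recombinase on the tail. Bard1 was at 6.25, 5.62 and 4.44 CPM in IR-Con and at 9.53 to 13.0 CPM (median 11.3) in the gels, a log2 fold change of 1.03 (SE 0.117, adjusted p = 2.14e-07). Brca1 (GRCm38 chr11:101488764-101551955) was at 14.9, 15.7 and 11 CPM in IR-Con. The gel libraries of Brca1 ran from 24.1 to 30.1 CPM (median 26.0), and its log2 fold change was 0.92 (SE 0.0924, adjusted p = 3.48e-08). The ligase partners therefore differed by nearly the same factor, 2.04-fold for Bard1 and 1.89-fold for Brca1. Palb2 was 1.87-fold and Brca2 1.27-fold higher, each with no overlap between the gel and IR-Con libraries. The IR-Con level of Palb2 was itself uneven, from 2.24 to 4.85 CPM.

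Of the genes for proteins that assist the recombinase, Rad54b, a translocase that remodels the paired strands, was at 8.61, 5.69 and 6.53 CPM in IR-Con and at 12.2 to 14.6 CPM (median 13.3) in the gels. Its log2 fold change was 0.93 (SE 0.107, adjusted p = 2.53e-07), but 35.9% of its exon bases are shared with other genes, chiefly Fsbp on the same strand. Its relative Rad54l, 15.4% of whose exon bases overlap Lrrc41, was 1.38-fold higher. Rad51ap1, which stimulates strand pairing, was 1.88-fold higher, and the helicase gene Blm was 1.83-fold higher, both without overlap. Among the recombinase paralogs, Rad51c (1.51-fold), Xrcc2 (1.43-fold) and Rad51b (1.37-fold) were higher, and Xrcc3 was not past the threshold at a log2 fold change of -0.07 (SE 0.0907). Rad52, which anneals complementary strands, was the recombination gene nearest to no difference by counts. It had 22.9, 18.0 and 22.0 CPM in IR-Con and 18.3 to 24.3 CPM (median 21.5) in the gels, so that the ranges overlapped almost completely, with a log2 fold change of 0.03 (SE 0.0858, 95% interval -0.14 to 0.21, adjusted p = 0.761).

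**Figure D2:**
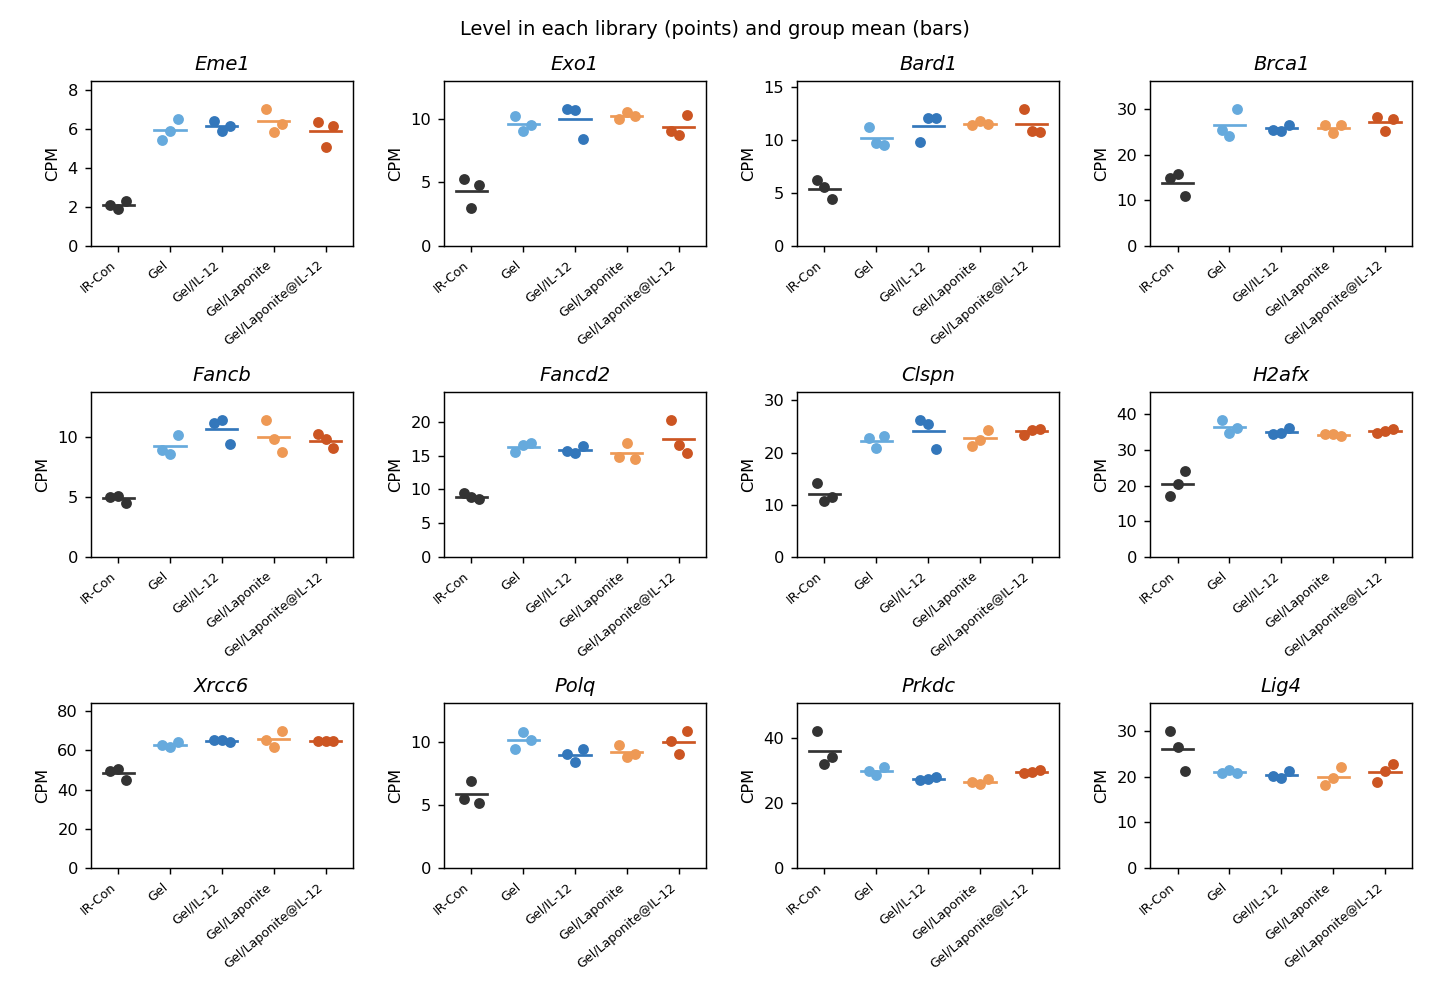
The level of 12 selected genes is plotted in CPM for each of the 15 libraries, with points for libraries and a bar for each group's mean on axes that start at 0. Eme1, Exo1, Bard1, Brca1, Fancb, Fancd2, Clspn, H2afx, Xrcc6 and Polq sit higher in every gel library than in every IR-Con library, Prkdc sits lower in every one, and the ranges of Lig4 overlap.

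In the Fanconi pathway 5 of 7 genes were higher and 1 was lower, against 27.4% and 27.6% of all genes. With voom 3 were higher and 0 lower, against 16.2% and 16.9%, the calls of Fanci, Fancl and Fancc being lost. Fanca, Fancb, Fancc, Fancg and Fancl encode parts of the core complex, in which Fancl is the ubiquitin ligase, and Fancd2 and Fanci encode the pair of proteins that it modifies. Fancb was at 4.97, 5.11 and 4.51 CPM in IR-Con and at 8.56 to 11.4 CPM (median 9.80) in the gels, a log2 fold change of 1.02 (SE 0.116, adjusted p = 2.44e-07). Fanca was at 7.16, 6.90 and 7.92 CPM in IR-Con and at 10.7 to 15.6 CPM (median 13.8) in the gels, with a log2 fold change of 0.90 (SE 0.116). Neither gene overlapped between gels and IR-Con. The substrate pair differed in the same direction. Fancd2 was at 9.40, 8.88 and 8.54 CPM in IR-Con and at 14.5 to 20.3 CPM (median 16.0) in the gels, a log2 fold change of 0.86 (SE 0.0938). Fanci was at 6.37, 5.18 and 5.83 CPM in IR-Con and at 7.15 to 9.35 CPM (median 8.45) in the gels, a log2 fold change of 0.53 (SE 0.117). In both, every gel library was the higher, although 16.0% of the exon bases of Fanci overlap Polg. Fancl was 1.40-fold higher.

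The core complex was not uniform. Fancg was at 17.2, 17.4 and 16.5 CPM in IR-Con and at 15.5 to 19.9 CPM (median 18.6) in the gels, overlapping, with a log2 fold change of 0.11 (SE 0.0716, 95% interval -0.03 to 0.25, adjusted p = 0.204). Fancc went the other way, at 8.43, 6.58 and 10.6 CPM in IR-Con and 5.58 to 8.37 CPM (median 6.77) in the gels. Its log2 fold change of -0.32 (SE 0.129) was the call nearest to the threshold, at an adjusted p of 0.0398. The ranges of Fancc overlapped, and without IR-Con replicate 3, its highest library, the log2 fold change was -0.14 with an adjusted p of 0.391. Leaving out any of 10 other libraries in turn, or using voom, also took it past 0.05.

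Of the 8 end joining genes 2 were higher, 3 were lower and 3 did not pass, shares near the 27.4% higher and 27.6% lower of all genes. Xrcc6 and Xrcc5 encode the Ku pair that caps broken ends, and Prkdc encodes the catalytic subunit of the DNA-dependent protein kinase that Ku recruits. Xrcc6 (GRCm38 chr15:81987835-82040085) was at 49.7, 50.6 and 45.1 CPM in IR-Con and at 61.6 to 70.0 CPM (median 64.6) in the gels, a log2 fold change of 0.41 (SE 0.0493, adjusted p = 4.20e-07). Its partner Xrcc5 was at 40.8, 39.9 and 31.7 CPM in IR-Con and at 31.9 to 37.4 CPM (median 35.0) in the gels, a log2 fold change of -0.10 (SE 0.0696, 95% interval -0.24 to 0.04, adjusted p = 0.237). The Ku genes thus differed from each other, with Xrcc6 above IR-Con in every gel library and Xrcc5 overlapping. Without IR-Con replicate 3, Xrcc5 was called lower, at -0.21 (adjusted p = 0.0057).

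Prkdc (GRCm38 chr16:15637866-15842235) was the gene of the 49 for which every gel library stood below every IR-Con library in CPM. It had 42.2, 31.9 and 34.1 CPM in IR-Con. The plain Gel libraries had 29.8, 28.6 and 31.0 CPM and the Gel/Laponite libraries 26.4, 26.0 and 27.5. With IL-12 the values were 27.0, 27.5 and 28 CPM in Gel/IL-12 and 29.3, 29.6 and 30.2 in Gel/Laponite@IL-12. The highest gel library thus lay just under the lowest of IR-Con. Its log2 fold change was -0.35 (SE 0.0665, 1.27-fold lower, adjusted p = 0.000159), and -0.21 without IR-Con replicate 1, its highest library, where it was still called. Lig4, the ligase that seals the joined ends, was at 30.0, 26.5 and 21.3 CPM in IR-Con and at 18.2 to 22.7 CPM (median 20.7) in the gels, a log2 fold change of -0.34 (SE 0.0839, adjusted p = 0.00177). The lowest IR-Con library of Lig4 lay inside the range of the gels, and without IR-Con replicate 1 its log2 fold change was -0.22, still called. Dclre1c, which encodes the Artemis nuclease that opens hairpin ends, was 1.23-fold lower by counts (adjusted p = 0.00149), also with overlap. Its call was lost with voom (adjusted p = 0.0562), and without IR-Con replicate 1 its log2 fold change was -0.20, still called. Xrcc4, the partner of Lig4, had a log2 fold change of -0.11 (SE 0.144), and ranged from 5.49 to 10.9 CPM in IR-Con alone. Nhej1, a factor that bridges the ends, had at most 32 counts in a library and a 95% interval of -0.76 to 0.42, too wide to show a change of this size.

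Polq encodes DNA polymerase theta, which joins ends at short matching sequences after resection and so uses a different route from the Ku genes. It was at 5.52, 6.90 and 5.21 CPM in IR-Con and at 8.43 to 10.9 CPM (median 9.47) in the gels, with a log2 fold change of 0.70 (SE 0.109, adjusted p = 1.38e-05) and no overlap. Polq was the end joining gene with the largest difference.

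Summed, the 23 recombination and Fanconi genes reached 226, 207 and 202 CPM in IR-Con and 305 to 318 CPM in the gels. The 8 end joining genes summed to 208, 193 and 165 CPM in IR-Con and 179 to 197 CPM in the gels. The first sum separated the groups and the second did not. Separation was not particular to the first, since the 14 sensor genes (515 to 611 CPM in IR-Con, 652 to 698 CPM in the gels) and the 4 genes of single-strand break repair (133 to 147 against 181 to 193 CPM) were also apart. The ratio of the recombination and Fanconi sum to the end joining sum was 1.09, 1.07 and 1.22 for IR-Con and ran from 1.56 to 1.75 over the 12 gel libraries. The sums weight each gene by its level, so abundant genes such as Xrcc6 count most.

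**Figure D3:**
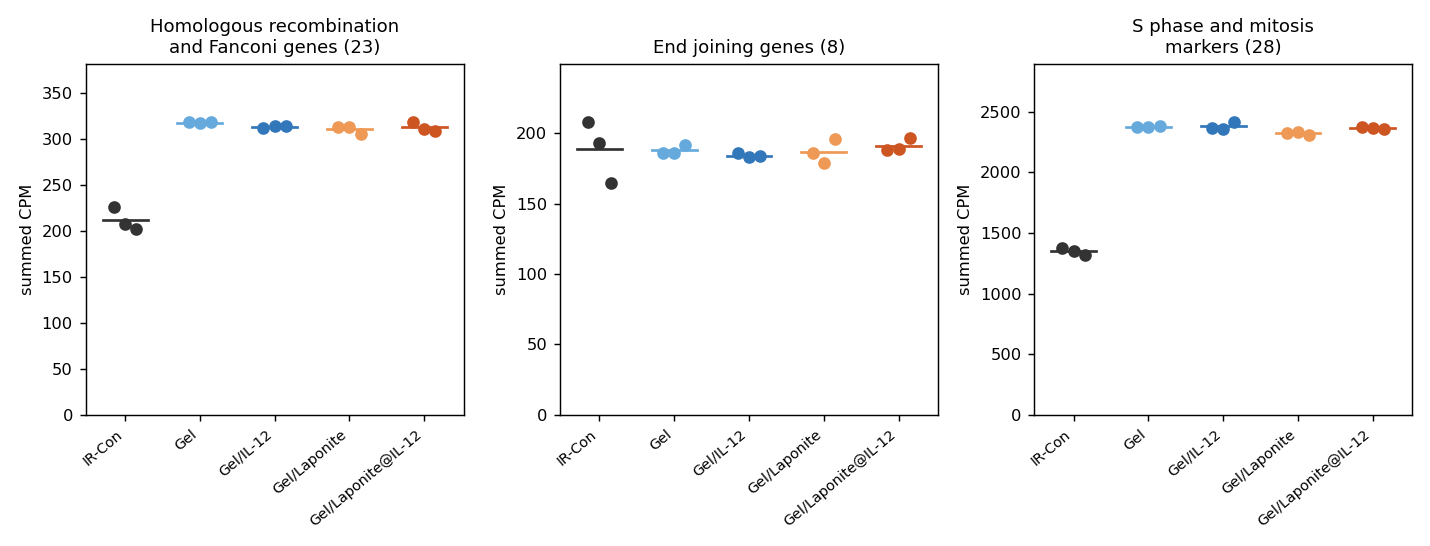
The summed CPM of the 23 recombination and Fanconi genes, the 8 end joining genes and 28 S phase and mitosis markers is plotted for each library (points) with the mean of each group (bars). The first panel separates IR-Con (202 to 226 CPM) from the gels (305 to 318 CPM), the second overlaps (165 to 208 against 179 to 197 CPM), and the third separates (1320 to 1370 against 2310 to 2410 CPM).

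Of the 14 sensor and signalling genes 8 were higher and 1 was lower, against 27.4% and 27.6% of all genes. With voom 6 were higher and 0 lower, against 16.2% and 16.9%. Clspn, the adaptor through which Atr activates Chek1, was at 14.1, 10.7 and 11.5 CPM in IR-Con and at 20.7 to 26.3 CPM (median 23.3) in the gels, a log2 fold change of 0.94 (SE 0.0919, adjusted p = 2.21e-08). Chek1, which encodes the checkpoint kinase that slows replication and holds cells in G2, was at 12.5, 10.2 and 9.45 CPM in IR-Con and at 16.1 to 21.2 CPM (median 19.0) in the gels, a log2 fold change of 0.78 (SE 0.0958, adjusted p = 5.97e-07). Both were higher in every gel library. Topbp1, which activates Atr, was 1.33-fold higher without overlap, at 90.9 to 111 CPM in IR-Con and 133 to 146 CPM in the gels. Atr itself was at 27.4 to 38.0 CPM in IR-Con and 28.9 to 35.0 CPM in the gels, with a log2 fold change of -0.04 (SE 0.0785, 95% interval -0.20 to 0.11).

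H2afx encodes the histone variant that Atm phosphorylates around a break. It was at 17.0, 20.6 and 24.1 CPM in IR-Con and at 33.9 to 38.5 CPM (median 34.8) in the gels, a log2 fold change of 0.78 (SE 0.0751, adjusted p = 1.72e-08). Chek2, the checkpoint kinase that Atm activates, was at 8.91, 9.71 and 9.58 CPM in IR-Con and at 11.1 to 15.3 CPM (median 13.2) in the gels, a log2 fold change of 0.48 (SE 0.0993, adjusted p = 0.000365). Neither overlapped between the gels and IR-Con, although the call of Chek2 was lost with voom (adjusted p = 0.0752). In the complex of Mre11a, Rad50 and Nbn that binds the broken end, Rad50 was higher by 0.32 (SE 0.0607) and Mre11a by 0.19 (SE 0.0534) on the log2 scale, while Nbn was not past the threshold (log2 fold change 0.11, SE 0.0878). The Mre11a ranges met at 41.3 CPM, and its call was lost with voom (adjusted p = 0.151). Mdc1, which reads the phosphorylated histone, was 1.22-fold higher.

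Trp53bp1, which restrains resection and favours end joining, was at 79.7, 79.7 and 74.8 CPM in IR-Con and at 74.4 to 80.6 CPM (median 77.6) in the gels, a log2 fold change of -0.01 (SE 0.0410, 95% interval -0.09 to 0.08). Of the ubiquitin ligases that recruit it, Rnf168 was not past the threshold (log2 fold change 0.16, SE 0.0787) and Rnf8 was 1.30-fold lower (adjusted p = 0.0127). The call of Rnf8 rests on 7.52 to 8.44 CPM in IR-Con against an overlapping 4.70 to 8.38 CPM in the gels, was lost without IR-Con replicate 2 (adjusted p = 0.0541) and with voom (adjusted p = 0.205), and 13.2% of its exon bases are shared on the same strand with Gm28043. Atm was at 66.3 to 90.7 CPM in IR-Con and 75.9 to 86.4 CPM in the gels, and did not pass (adjusted p = 0.197). Without IR-Con replicate 1, its highest library, Atm was called higher with a log2 fold change of 0.28 (adjusted p = 2.82e-05).

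Of the 4 genes of single-strand break repair, 3 were higher, against 27.4% of all genes. Parp1 and Parp2 encode enzymes that mark nicks with ADP-ribose chains, and Xrcc1 is the scaffold that holds the ligase Lig3. Parp2 was at 20.3, 18.7 and 19.5 CPM in IR-Con and at 27.5 to 32.2 CPM (median 30.6) in the gels, with a log2 fold change of 0.64 (SE 0.0640). Parp1 was at 55.1, 55.5 and 56.7 CPM in IR-Con and at 76.8 to 82.1 CPM (median 80.8) in the gels, with a log2 fold change of 0.52 (SE 0.0430, adjusted p = 1.73e-09). Both were even across the IR-Con libraries and stood apart from the gels. Xrcc1 was at 14.0, 11.6 and 19.2 CPM in IR-Con and at 19.5 to 25.4 CPM (median 23.2) in the gels, a log2 fold change of 0.61 (SE 0.104), so that its highest IR-Con library lay just below the lowest gel library. Lig3 was at 50.8, 47.4 and 51.3 CPM in IR-Con and at 49.8 to 58.1 CPM (median 53.8) in the gels, and its log2 fold change of 0.11 (SE 0.0513) lay just outside the threshold at an adjusted p of 0.0647. A share of 25.1% of its exon bases overlaps other genes, chiefly Rffl.

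Over the 49 genes, every gel library was above every IR-Con library in CPM for 30 and below for 1, against 18% and 15.6% of all genes tested. The 30 comprised 18 of the 23 recombination and Fanconi genes, 7 of 14 sensors, 2 of 8 end joining genes and 3 of 4 in single-strand break repair. IR-Con had the lowest group mean for 37 of the 49 genes, a count for which no share of all genes is given. Among the 38 genes with at most 10% of their exon bases shared with another gene, 25 were higher and 3 lower. These included 13 higher and 0 lower of 16 in recombination and the Fanconi pathway. Over all genes tested, whatever their exon overlap, 27.4% were higher and 27.6% lower.

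Levels were compared between genes only with the authors' FPKM, which is per length, and only within a group. In IR-Con the highest of the 49 were Xrcc6 (16.6 ± 1.79 FPKM, SD, n = 3), Topbp1 (13.7 ± 3.0) and Rnf8 (12.8 ± 2.01), and the lowest were Palb2 (0.419 ± 0.178) and Rad51b (0.556 ± 0.15). In Gel the highest were Xrcc6 (23.6 ± 0.652), H2afx (22.1 ± 1.36) and Topbp1 (20.2 ± 2.8), and the lowest was Rad51b (0.695 ± 0.0724). Most of the upper places in both groups belonged to sensor, Ku and single-strand break repair genes, and most of the lower ones to recombination and Fanconi genes. The SD ranges of neighbours among the first places overlapped in both groups. The FPKM values are not a fixed multiple of count over length, and Rnf8 ranks far higher by FPKM than its 7.52 to 8.44 CPM. Some gel differences depended on the measure. Dclre1c and Fancc were lower by counts, but their mean FPKM was higher in every gel group. It was 3.55 to 4.65 against 3.29 in IR-Con for Dclre1c, and 1.23 to 1.68 against 0.905 for Fancc. Prkdc, Lig4 and Rnf8 were lower by mean FPKM too, but the libraries of all of them overlapped by FPKM. For Prkdc, separate in CPM, they were at 1.73 to 2.21 FPKM in IR-Con and 1.5 to 1.9 in the gels. Rad52 libraries were at 3.23 to 5.39 FPKM in IR-Con and 5.38 to 8 in the gels. Those of Exo1 overlapped, at 0.217 to 1.88 and 0.798 to 1.22. Libraries of Blm, Brca2, Rad54l, Fanca, Fanci, Fancl and Polq, separate in CPM, overlapped by FPKM as well, and those of Topbp1 met at 16.9. These FPKM differences were not tested.

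The marker genes of dividing cells moved with the repair genes. All 28 S phase and mitosis markers examined were higher in the gels in edgeR, against 27.4% of all genes, with a median log2 fold change of 0.87. Their summed level was 1320 to 1370 CPM in IR-Con and 2310 to 2410 CPM in the gels, without overlap. They include Mcm5 of the replication helicase (2.44-fold), Rrm2 of deoxynucleotide synthesis (2.37-fold), Ccnb1 of mitotic entry (2.44-fold) and Mki67, a general marker of cycling cells (1.69-fold). Their part in the difference of the repair genes was not tested. In bulk RNA, fewer cells of a kind and less RNA per cell cannot be told apart. The blood and macrophage marker sum given above also moved with the gels. The mesenchymal marker sum was lower in them, at 8350 to 12400 CPM in IR-Con, highest in IR-Con replicate 3, and 7330 to 7730 CPM in the gels. Most of that sum was Col1a1, at 5630, 6620 and 9910 CPM in IR-Con and 4110 to 4640 CPM in the gels. The 12 mesenchymal markers were mixed, with 4 called higher and 5 lower in edgeR, against 27.4% and 27.6% of all genes. Their median log2 fold change was 0.03. The part of neither sum was tested.

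Among 46 further genes of break repair that are not in the list of 49, 19 were higher and 5 lower in the gels, with a median log2 fold change of 0.15, against 27.4% and 27.6% of all genes. Ube2t, the ubiquitin-conjugating enzyme of the Fanconi pathway, was 2.20-fold higher, Recql4 2.02-fold, the Brca1-associated helicase Brip1 1.62-fold and Timeless of the replication fork 1.58-fold. Mus81, the partner of Eme1, was not past the threshold (log2 fold change -0.07, SE 0.0764). Subunits of the single-strand binding protein RPA diverged, with Rpa2 1.62-fold and Rpa3 1.37-fold higher and Rpa1 lower (log2 fold change -0.25, SE 0.0383). Fancf of the Fanconi core, Rmi1 and Top3a, which act with Blm, and Rnf169 were the other 4 lower genes. Of 22 p53 target genes, 4 were higher and 7 lower, with a median of -0.04, not far from the shares of all genes, and their summed level overlapped at 784 to 825 CPM in IR-Con and 781 to 817 CPM in the gels. The cell cycle inhibitor Cdkn1a was among the lower ones (log2 fold change -1.06, SE 0.0752), and the death receptor gene Fas was among the higher ones (1.15, SE 0.0876).

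Promoter sequences were examined because the recombination genes moved together and E2F factors are known to drive many genes of S phase. RefSeq promoter windows on GRCm38.p6, from 250 bases before to 50 bases after the start site, were matched by symbol for 40 of the 49 genes. An E2F word (TTTGGCGC, TTTCGCGC, TTTGCCGC or TTTCCCGC, on either strand) was present for 9 of 40 genes, 22.5% (exact 95% interval 10.8 to 38.5%), against 2.6% of all 27025 genes with a window and 4.58% of the 10691 of these that were tested here. By role these were 4 of 11 sensors, 3 of 12 recombination genes, 1 of 6 Fanconi genes, 1 of 7 end joining genes and 0 of 4 genes of single-strand break repair. The word was thus not limited to the recombination genes, and Eme1, Brca1 and Blm had no such word in their windows. The genes called higher held it in 8 of 25 cases, and the others in 1 of 15. The CHR words TTTGAA and TTCGAA, on either strand, occurred for 6 of 40 genes (15%, against 21.7% of all and 16.5% of the tested genes), and CCAAT, on either strand, for 20 of 40 (50%, against 41.1% of all and 43.1% of the tested genes). Words of different kinds that overlap were each counted. A match describes the letters in the window and not a bound site.

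Stretches around the E2F word are shown for the 5 genes in which it lies before the start site and outside annotated exons, 5′ to 3′ on the strand of the gene, with the word or its reverse complement in capitals. Bard1 is at chr1:71103147-71103221 (minus strand), Chek2 at chr5:110839791-110839878, Topbp1 at chr9:103305158-103305214, Brca2 at chr5:150522413-150522500 and Mdc1 at chr17:35841442-35841497 (plus strand for these 4).
Bard1: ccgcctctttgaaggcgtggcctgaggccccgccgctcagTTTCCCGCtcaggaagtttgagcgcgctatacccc
Chek2: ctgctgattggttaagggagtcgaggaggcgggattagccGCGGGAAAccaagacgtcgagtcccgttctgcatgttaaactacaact
Topbp1: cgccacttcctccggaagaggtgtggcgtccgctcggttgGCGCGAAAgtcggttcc
Brca2: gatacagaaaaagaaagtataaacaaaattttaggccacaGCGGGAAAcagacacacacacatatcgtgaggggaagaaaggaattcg
Mdc1: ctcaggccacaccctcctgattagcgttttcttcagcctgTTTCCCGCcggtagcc
The word begins 209 bases before the start site in Bard1, 152 in Chek2, 129 in Topbp1, 168 in Brca2 and 16 in Mdc1. All 5 of these genes were called higher in the gels, as were 25 of the 40 genes with a window. Their log2 fold changes ran from 0.28 for Mdc1 to 1.03 for Bard1, and the calls of Chek2 and Brca2 were lost with voom. In Fancg, which was not past the threshold, and Xrcc6, which was higher, the word also lay before the start site. It was inside an annotated exon there, so these are not shown.

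Each gel group was also compared with IR-Con on its own, and these comparisons share the 3 IR-Con libraries. For the plain Gel 32 of the 49 genes were higher and 4 lower, against 22.9% and 21.8% of all genes. With the complete Gel/Laponite@IL-12 33 were higher and 3 lower, against 23% and 21.5%. Gel/IL-12 gave 31 higher and 4 lower genes, against 24% and 22.6%, and Gel/Laponite 30 higher and 3 lower, against 23.2% and 21.7%. The lower calls depended on the fit, with 1 left under voom for the plain gel and 0 for the complete one, and leaving out single libraries gave 1 to 5 for Gel and Gel/Laponite (1 without Gel replicate 2, and 1 without IR-Con replicate 1 or Gel/Laponite replicate 1). The 23 recombination and Fanconi genes gave 18 or 19 higher calls and 0 lower calls in each comparison. Prkdc was lower in each of them, with a log2 fold change of -0.28 for the plain and also for the complete gel, -0.39 with IL-12 alone and -0.44 with Laponite alone.

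Within the gels, IL-12 and Laponite were each tested over the 4 gel groups. No repair gene passed for IL-12, where 0.0192% of all genes were higher and 0% lower. At an unadjusted p under 0.05 in edgeR there were 0 of the 49, against 0.981% of all genes higher and 0.744% lower. No repair gene passed for Laponite either, against 0.513% and 0.346% of all genes. Again 0 had an unadjusted p under 0.05, against 3.37% of all genes higher and 3.09% lower. DESeq2 and voom also called 0 of the 49 in both. The edgeR p-values share the wider spread of IR-Con, so small effects within the gels can be missed. With only the gel libraries in the fit, 2.91% of all genes were called higher and 2.61% lower for Laponite. For IL-12 these shares were 0.263% and 0.079%. Calls among the 49 in that fit are not given here for IL-12 or Laponite. The IL-12 effect ran from -0.17 for Palb2 to 0.11 for Rnf168, and the Laponite effect from -0.25 for Nhej1 to 0.15 for Rnf8. The 95% interval lay within 0.5 of 0 on the log2 scale for 48 of the 49 genes in each, and no share of all genes is given for this. That bound is wider than the median gel effect of 0.46, so it does not exclude IL-12 or Laponite effects of such a size. The complete gel against the plain one, Gel/Laponite@IL-12 over Gel, gave 0 calls among the 49 (0.205% and 0.109% of all genes), and 0 with DESeq2 or voom. At an unadjusted p under 0.05 in edgeR there were also 0, against 2.46% of all genes higher and 2.39% lower. The highest group mean was in IR-Con for 8 genes, in Gel/IL-12 for 13, in the plain Gel for 11, in Gel/Laponite@IL-12 for 10 and in Gel/Laponite for 7, so no gel held the top place throughout.

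**Figure D4:**
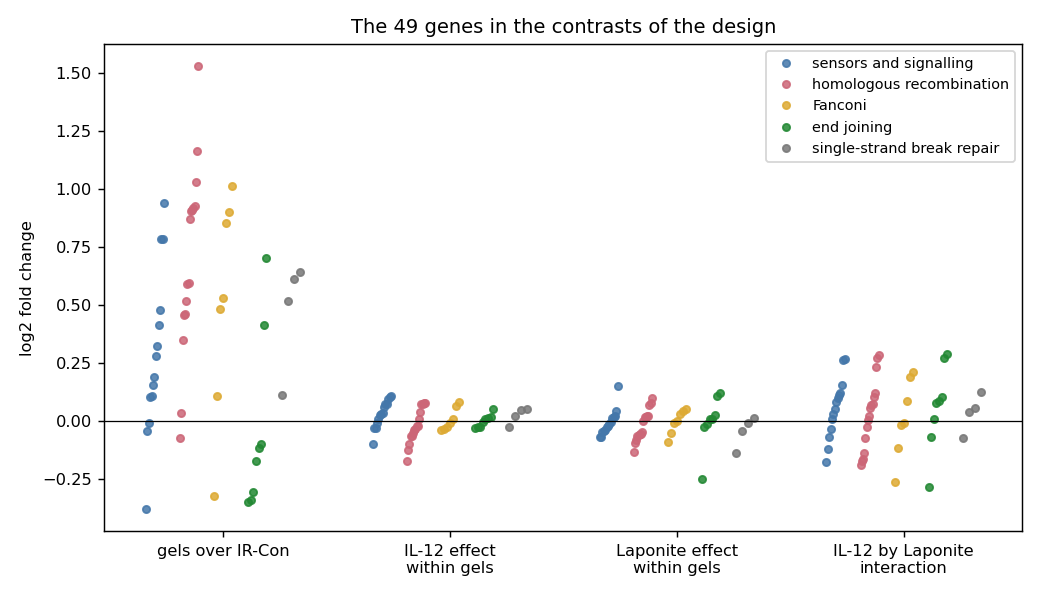
The log2 fold changes of the 49 genes are plotted for 4 contrasts, with points coloured by role. They run from -0.38 to 1.53 for the gels over IR-Con, from -0.17 to 0.11 for IL-12 and from -0.25 to 0.15 for Laponite within the gels, and from -0.28 to 0.29 for the interaction.

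The interaction of IL-12 and Laponite, the IL-12 difference with Laponite minus that without, also gave 0 calls among the 49 in the fit over all 15 libraries (0% of all genes higher and 0% lower). Of the 49, 2 genes, Atm and Prkdc, had an unadjusted p under 0.05 in it, both in the higher direction and 0 in the lower. Of all genes, 1.78% were higher and 2.27% lower at that p. Atm had 80.2, 84.6 and 86.4 CPM in the plain Gel and 86.1, 80.7 and 85.9 in the complete Gel/Laponite@IL-12. With IL-12 alone it had 76.3, 75.9 and 78.8 CPM, and with Laponite alone 76.0, 76.5 and 75.9. The libraries with neither or both additions therefore stood above those with only 1, without overlap. The interaction of Atm was a log2 value of 0.27 (SE 0.120, unadjusted p = 0.038, adjusted p = 1). With only the 12 gel libraries in the fit, which then do not share the spread of IR-Con, the adjusted p of Atm was 0.00141. In that fit 1.41% of all genes were called higher and 2.29% lower, so 1 call among 49 is near the background. With voom the adjusted p of Atm was 0.0222, against 0.378% of all genes higher and 1.08% lower. Prkdc, given library by library above, had the same split of neither or both additions above only 1, also without overlap. Both genes were picked by their p, and no share of all genes split in this way is given. The interaction of Prkdc was 0.27 (SE 0.123, unadjusted p = 0.0373 in the fit over all 15 libraries). Its adjusted p was 0.093 with only the gel libraries and 0.129 with voom, so it did not pass in either.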

How the data were processed

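RNA-seq of 15 libraries was analysed. The authors deposited a raw count per gene and library, as whole numbers, and FPKM values per gene and library. The FPKM values were used to compare levels between genes and, for a few genes, between groups, and in no test. The same table holds the authors' own fold changes and p-values for pairs of groups and group means, which were not used. The labels name the build mm10, while the aligner, the counting tool and the strand rule are not given in the sources used here. Of 51094 listed gene starts that could be compared, 1488 equal those of GENCODE M21 (GRCm38), so positions were taken from M21 by gene identifier.

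Genes were filtered with edgeR 4.0.16 (filterByExpr, minimum count 10, minimum total 15) and scaled by TMM, and a robust quasi-likelihood model with a mean per group and 10 residual degrees of freedom was tested two-sidedly, with Benjamini-Hochberg adjustment over 15590 genes and a threshold of 0.05. The SE is the log2 fold change divided by the root of F, and intervals are 2 SE wide on each side. CPM values were computed from the counts with TMM scaling. Alternatives were DESeq2 1.42.0, its size factors, limma 3.58.1 voom, no filter, fewer libraries, a replicate block and leaving out each library. The pipeline was tested on data simulated with equal spread in all libraries. IR-Con varied more than the gels here, so that test does not show how reliable the calls against IR-Con are.

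Values in every library were given for up to 4 called genes with the largest gel effect in each list, the gene nearest 0, and the genes nearest the threshold, and Brca1 was added after its values were seen. The members and lists were chosen with earlier results of these data known. The exact intervals of shares are Clopper-Pearson and cover counting error only. Exon overlap was measured on M21, and the promoters are RefSeq sequences.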

Additional observations from a re-analysis of the deposited data

How the results depend on the processing

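Of 980 alternative values of the gel effect on the 49 genes, 929 kept their direction and side of the threshold, and no called gene changed sign. Near 0 the sign changed on leaving out single libraries, where Atr ran from -0.129 to 0.123, Nbn from -0.045 to 0.206, Rad52 from -0.065 to 0.106, Xrcc4 from -0.357 to 0.058 and Trp53bp1 from -0.035 to 0.011. Trp53bp1 was 0.027 without a filter. With voom the lower genes in the gel effect numbered 2, and the lower genes were 1 for Gel and 0 for Gel/Laponite@IL-12 against IR-Con. With only the libraries of the comparison these were 0 and 0, and 1 for Gel/Laponite. The interaction then had 1 higher call among the 49, against 1.41% of all genes, and 1 with voom, against 0.378%. Leaving out libraries gave 32 to 33 higher and 4 to 6 lower genes in the gel effect, and 1 to 5, 1 to 4 and 1 to 5 lower genes for the plain Gel, Gel/Laponite@IL-12 and Gel/Laponite. The lowest counts, 1, came without IR-Con replicate 1, Gel replicate 2, Gel/Laponite replicate 1 and Gel/Laponite@IL-12 replicates 1 and 2. The cause was not tested.

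Equal replicate numbers did not pair the libraries, with correlations of deviations from -0.072 to 0.041 over 30 pairs, and 2 of 15 libraries correlated best with their own number. With a replicate block, 32 genes were higher and 5 lower. An E2F word lay before the start site in 17.5% of the 40 windows and in 2.16% of all. With 3 libraries per group and IR-Con at 17.1% variation, small changes against IR-Con were not resolved, and Eme1, Nhej1 and Palb2 rest on few counts.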
